A study of Triticum polonicum with 10 samples.

Results

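The genes described here are 121 root genes of dwarf Polish wheat whose transcripts were less abundant with cadmium when no iron salt was given, but more abundant with cadmium when FeCl3 was given. They were selected from 21594 eligible gene IDs, those on the numbered chromosomes of the A and B subgenomes, without the suffix LC, and with a mean of at least 5 CPM (counts scaled to the library total and given per 1000000) over 10 libraries. The IDs listed for the whole series number 274924. A member had to differ by 1 or more on the scale log2(CPM + 0.5), downwards for cadmium against no cadmium without iron salt, and upwards for the same contrast at both 50 and 200 µM FeCl3. Levels in 6 libraries thus chose the members, and every difference between those 6 libraries is given below as a description without a test. The 4 libraries fed Fe2(SO4)3 took no part in the 3 contrasts and serve as an outside check, although they entered the mean CPM.

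Dwarf Polish wheat (Triticum polonicum) is a tetraploid wheat with A and B subgenomes. Seedlings 4 weeks of age were treated for 1 week, and root RNA was sequenced. The 10 treatments were no addition (the control), 80 µM CdCl2 alone, and each of FeCl3 and Fe2(SO4)3 at doses of 50 and 200 µM, in the absence or presence of the same CdCl2 dose. Every treatment is represented by 1 library, while the design text speaks of 3 biological replicates, so the spread within a treatment is unknown. The medium that all groups share was not stated in the labels. "Without iron" below means that no iron salt was added.

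Of the 4 Fe2(SO4)3 libraries, 3 carry a title code that conflicts with their treatment text. The library coded B200CK is 200 µM without cadmium in both. B200Cd is a cadmium library in both, at 200 µM by its code and 50 µM by its text. B50CK is 50 µM without cadmium by code and 200 µM with cadmium by text, and B50Cd is 50 µM with cadmium by code and 50 µM without it by text. Neither reading was preferred, and values are given under both.

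Cadmium has no known function in plants, and it enters roots largely through carriers whose normal cargo is iron, manganese or zinc. Grasses take up ferric iron mainly as a complex with secreted phytosiderophores, chelators of the mugineic acid family. Plant cells bind cadmium with glutathione-derived phytochelatins and store the complexes in the vacuole. The files pair no ID with a gene name or function, so no member can be assigned to any of these systems, the root label cannot be checked against marker genes, and IDs are used as given.

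Total counts ran from 13635628 in the control to 19320820 in the cadmium library without iron. A count of 3, used as the detection floor, corresponded to 0.155 to 0.220 CPM. Intervals and floors cover counting error only. In bulk roots, fewer cells of a type and less RNA per cell cannot be told apart.

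Together the 121 members accounted for 1.22% of all counts in the control and for 0.219% in the cadmium library without iron. At 50 µM FeCl3 their share was 0.228% without cadmium and 0.622% with it. At 200 µM FeCl3 the shares were 0.136% and 0.460%. The control was thus highest and the library with 200 µM FeCl3 alone was lowest. The 10 members with most counts held 56.2% of the members' CPM in the control, so per-gene medians are given as well. The median member stood at 35.6 CPM in the control, 8.49 CPM with cadmium, 8.25 and 23.5 CPM at 50 µM FeCl3 without and with cadmium, and 4.64 and 19.0 CPM at 200 µM. Over all eligible genes the library medians stayed between 14.6 and 16.9 CPM.

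**Figure D1:**
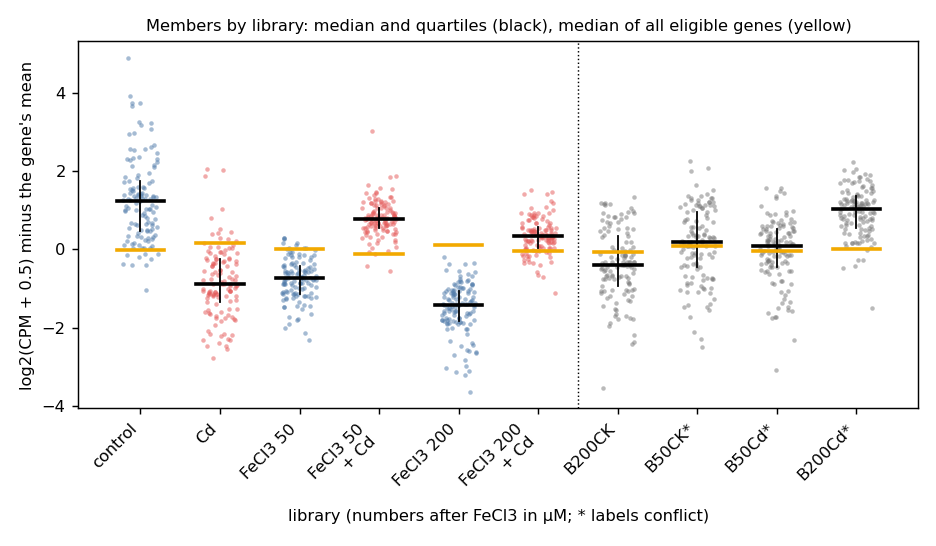
Points are the 121 members, with log2(CPM + 0.5) minus each gene's own mean over 10 libraries on the vertical axis and the library on the horizontal axis. Blue marks rule libraries without cadmium, red those with it, and grey the Fe2(SO4)3 libraries. Thick black bars are member medians, thin black bars span the quartiles, and yellow bars are medians of all eligible genes. Member medians are 1.24 in the control and -0.88 with cadmium, against 0.79 and 0.35 at 50 and 200 µM FeCl3 with cadmium and 1.03 in B200Cd.

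The cadmium difference without iron, which the rule used, had a median of -1.81 on the log2 scale over the members and reached -6.84. At 50 µM FeCl3 the median was 1.41 and the highest value 3.27, and at 200 µM these were 1.65 and 4.61. Of all eligible genes, 12.3% met the criterion without iron, 7.98% that at 50 µM, 11.4% that at 200 µM, 4.5% both FeCl3 criteria and 0.56% all 3. The 121 members are 4.54% of the 2664 genes lower without iron and 12.5% of the 971 genes higher at both FeCl3 doses. The opposite pattern, higher without iron and lower at both FeCl3 doses, was met by 51 genes. These counts follow from the rule and nothing is read from them. The control was the highest of the 10 libraries for 55 members, where 20.5% of eligible genes had their highest level there. A deviation of the control library alone cannot be told apart from a dependence of the cadmium difference on iron.

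Scaling by TMM, which estimates library factors from the bulk of genes, shifted the cadmium differences by about -0.23 without iron, 0.20 at 50 µM and 0.25 at 200 µM FeCl3. All 3 shifts run in the direction the rule asks for. Under that scaling 228 genes met the rule, including the 121 members.

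TraesCS4A01G317900 had the widest pattern, judged by the smallest of its 3 differences. Without iron it stood at 14.2 CPM (no cadmium) and 1.60 CPM (cadmium), at 2.15 and 21.2 CPM at 50 µM FeCl3 without and with cadmium, and at 0.682 and 9.31 CPM at 200 µM. The 3 high libraries lay well above the 3 low ones, and the log2 differences were -2.81, 3.03 and 3.05. In the sulfate libraries it was at 12.3 CPM in B200CK, 12.2 CPM in B50CK, 3.41 CPM in B50Cd and 29.2 CPM in B200Cd.

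TraesCS4B01G259400 came next and, with the gene before it, made up the 2 members that differed at least 4-fold in all 3 contrasts. Its control level was 26.7 CPM, against 5.59 CPM under cadmium, then 9.46 and 44.2 CPM at 50 µM FeCl3 without and with cadmium, and 3.55 and 17.1 CPM at 200 µM. It was at 6.08 CPM in B200CK, 12.7 CPM in B50CK, 22.5 CPM in B50Cd and 31.8 CPM in B200Cd. Both genes were thus highest in B200Cd among the sulfate libraries, but they differed in order for the other 3.

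**Figure D2:**
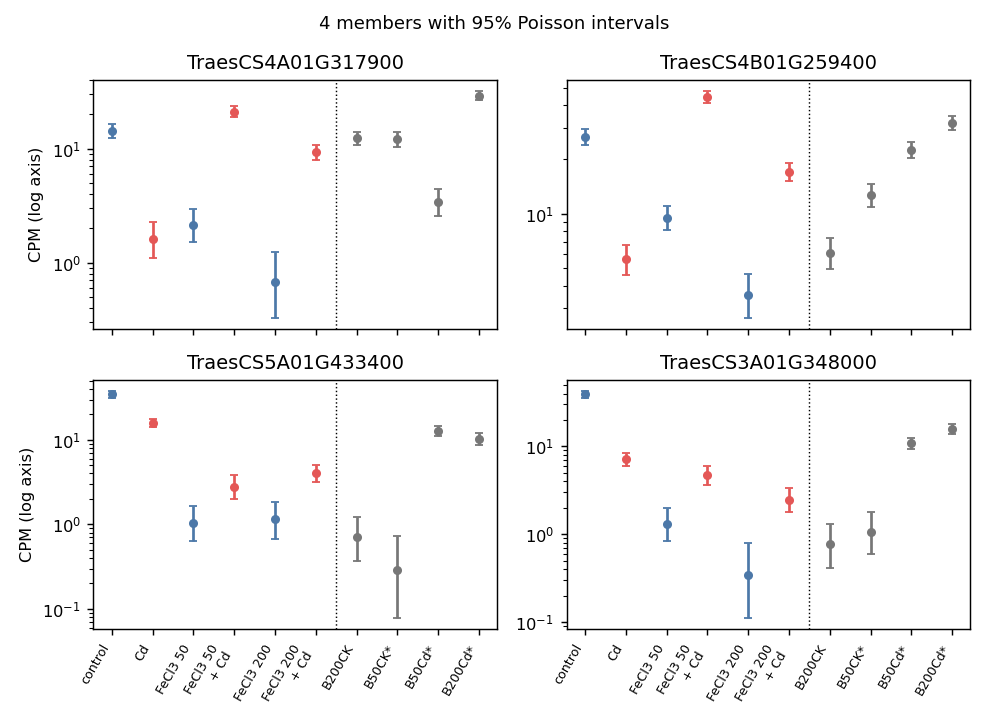
Each panel plots CPM on a log axis for 1 member in the 10 libraries, with 95% exact Poisson intervals for counting error. Blue marks rule libraries without cadmium, red those with it, and grey the Fe2(SO4)3 libraries. The upper genes alternate at every supply, from 14.2 to 1.60 CPM without iron for TraesCS4A01G317900, and the lower genes, TraesCS5A01G433400 and TraesCS3A01G348000, are at least 10 CPM in B50Cd and B200Cd and at most 1.07 CPM in B50CK and B200CK.

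The members with most counts were TraesCS2B01G282400 and TraesCS4B01G251100. TraesCS2B01G282400 had a control level of 2109 CPM and reached 235.8 CPM with cadmium, 187.3 and 494.3 CPM at 50 µM FeCl3 without and with cadmium, and 192.4 and 425.7 CPM at 200 µM. Its control level was more than 4 times that of any other rule library. TraesCS4B01G251100 was at 759.0 and 140.0 CPM without iron, 171.5 and 549.4 CPM at 50 µM, and 76.1 and 383.7 CPM at 200 µM. Per length, on the deposited FPKM scale, these genes stood in the control at 1357 and 343.6 FPKM. In the sulfate libraries TraesCS2B01G282400 was at 317.0 CPM in B200CK, 305.8 CPM in B50CK, 612.6 CPM in B50Cd and 707.0 CPM in B200Cd, so that the libraries coded Cd were the higher ones.

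Among the members, 36 had a smallest difference within 0.1 of the limit. Just inside were TraesCS5A01G261400, with 1.00 at 50 µM FeCl3 (-2.81 without iron, 1.39 at 200 µM), and TraesCS2B01G606400, with -1.004 without iron (1.41 and 1.61 with FeCl3). Just outside were TraesCS6B01G356200 and TraesCS2B01G372600, which also reached 1.00 at 50 µM after rounding but fell short of the limit. The signs the rule asks for, at any size, were shown by 1995 eligible genes, or 9.24%.

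FeCl3 by itself went with lower levels of most members. At 50 µM without cadmium, 93 members were at least 2-fold below the control, against 10.3% of eligible genes, with a median difference of -1.97. At 200 µM there were 105 such members, against 13.3%, with a median of -2.68. Among the 2543 other genes lower with cadmium without iron, 43.4% were at least 2-fold lower at 50 µM and 63.1% at 200 µM. Their medians were -0.85 and -1.33. In the presence of cadmium the sign was the other way: 89 members were at least 2-fold higher at 50 µM FeCl3 than without iron (10.6% of eligible genes), and 70 at 200 µM (9.35%), with medians of 1.69 and 1.35. Of those other genes 34.8% and 30.5% were at least 2-fold higher, with medians of 0.57 and 0.43. All of the libraries compared here entered the rule.

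The larger dose was associated with lower levels than the smaller one both without and with cadmium. From 50 to 200 µM FeCl3 the median member differed by -0.62 without cadmium, where 47 members were at least 2-fold lower (8.27% of eligible genes). With cadmium it differed by -0.46, and 17 members were at least 2-fold lower (1.44%). Over the 2543 other genes lower with cadmium without iron, the medians were -0.51 without cadmium and -0.17 with it. With cadmium and 50 µM FeCl3 the median member stood at 0.781 of its control level, and 49 members were at or above the control, against 45.8% of eligible genes above it. At 200 µM the ratio was 0.562 and 30 members were at or above the control, against 49.4%.

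The members were not uniform. In 95 of them the control and both FeCl3 libraries with cadmium were all above the cadmium library and both FeCl3 libraries without cadmium, against 3.77% of eligible genes. The rule used the same libraries and partly fixes this order, so nothing is read from that difference. In the other members the sets overlapped, because the gene differed more between supplies than with cadmium. TraesCS4B01G351000 is such a case, at 3.52 and 0.518 CPM without iron but 5.99 and 12.5 CPM at 50 µM FeCl3 and 4.16 and 10.2 CPM at 200 µM, so that its control level was below every FeCl3 library. At the other extreme TraesCS1A01G391900 was at 488.7 CPM in the control and between 2.76 and 35.3 CPM in the other 9 libraries.

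Zero counts occurred in 2 members, named here after their values were seen. TraesCS6B01G046600 had 0 counts at 50 µM FeCl3 without cadmium, where the floor was 0.165 CPM, and 1.19 CPM with cadmium. TraesCS2B01G100800 had 0 counts in B50Cd, where the floor was 0.176 CPM, beside 56.6 CPM in the control and 16.6 CPM in B50CK. For these genes the log2 values depend on the pseudocount.

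**Figure D3:**
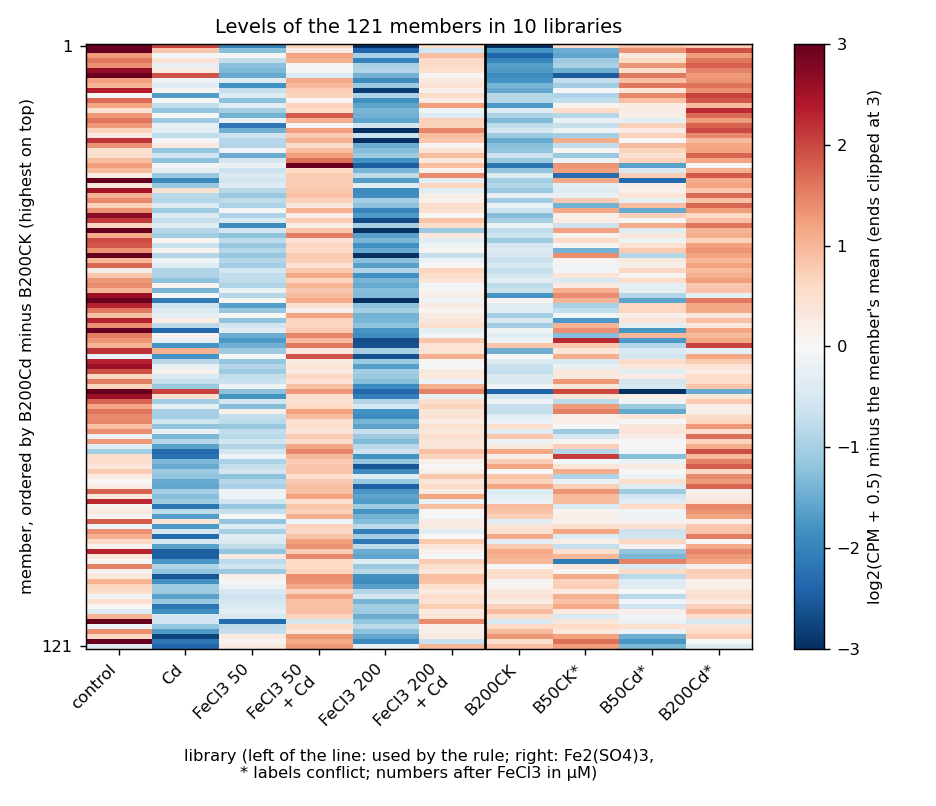
Rows are the 121 members, ordered by B200Cd minus B200CK, and columns are the 10 libraries, with those the rule used left of the line. Colour is log2(CPM + 0.5) minus the member's own mean, clipped at 3 in either direction. The alternation in the first 6 columns is imposed by the rule, while B200Cd, outside it, is above B200CK in 114 of the 121 rows and B50Cd is above B50CK in 56.

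The outside check first used the pair of sulfate libraries whose cadmium status is the same by code and by text, B200Cd with cadmium and B200CK without it. Members were higher in B200Cd for 114 of 121, against 54.8% of eligible genes, with a median difference of 1.21 against 0.07. At least 2-fold higher were 65 members, against 9.9% of eligible genes, and at least 2-fold lower was 1, against 5.22%. This direction is that of the FeCl3 contrasts and not that without iron. It was not particular to the members: of the 518 eligible genes higher with cadmium at all 3 supplies without sulfate, 70.7% were at least 2-fold higher in B200Cd and 91.7% were higher, with a median of 1.77. Of the 2543 other genes lower with cadmium without iron, 14.5% were at least 2-fold higher and 57.8% were higher, with a median of 0.14. There is 1 library on each side, so no test was possible, and by the treatment text the libraries differ in dose as well.

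The extremes of that pair were TraesCS2A01G033900 and TraesCS3A01G348000 on the higher side. TraesCS2A01G033900 was at 0.118 CPM (2 counts) in B200CK and 11.9 CPM in B200Cd, and at 10.2 and 12.7 CPM in B50CK and B50Cd, so that B200CK stood alone as the low library. On the lower side were TraesCS4B01G351000, with a difference of -1.31, and TraesCS4A01G494600, with -0.55.

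Between B50Cd and B50CK, whose cadmium status is exchanged between the readings, the members showed no common direction. The median difference of B50Cd from B50CK was -0.10, and it was also -0.10 over all eligible genes. At least 2-fold higher in B50Cd were 26 members (12% of eligible genes) and at least 2-fold lower were 37 (15.6%). The quartiles were -1.29 and 0.77 for members and -0.66 and 0.46 for eligible genes, so that members spread more widely in both directions. Other sets were displaced in this pair. The median was 1.92 for the 518 genes higher with cadmium at all 3 supplies without sulfate. It was -0.82 for the 2543 other genes lower with cadmium without iron. These values were not used to choose a reading.

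**Figure D4:**
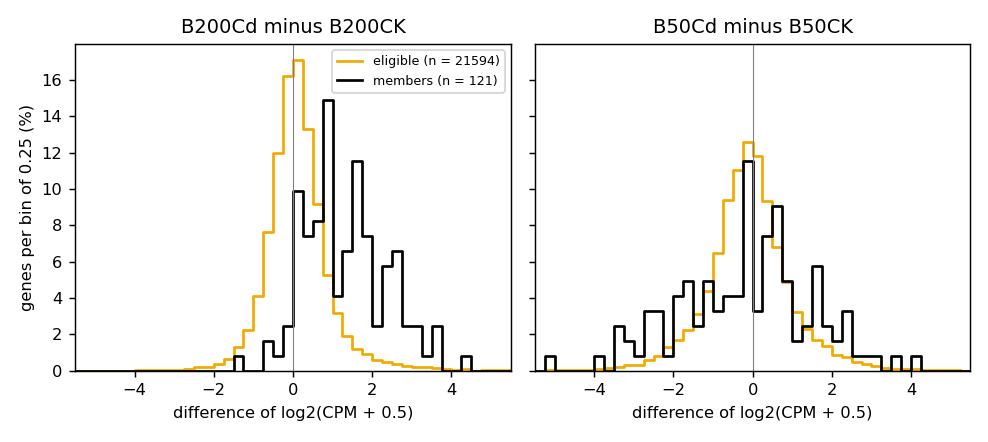
The horizontal axis is the difference of log2(CPM + 0.5) between sulfate libraries and the vertical axis the percent of genes per bin of 0.25, for the 121 members (black) and 21594 eligible genes (yellow). Members are displaced upwards between B200Cd and B200CK, with a median of 1.21, and centred like the eligible genes between B50Cd and B50CK, with a median of -0.10.

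Within the sulfate libraries, B200Cd was the highest of the 4 for 76 members, or 62.8%, against 23.0% of eligible genes, and B200CK was the lowest for 54, or 44.6%, against 28.1%. Both held for 39 members, against 9.65% of eligible genes. B50CK was highest for 35 members, or 28.9%, against 39.3% of eligible genes, and B50Cd for 6, or 4.96%, against 18.3%.

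Read by the title codes, the sulfate libraries form a pair at 50 µM (B50Cd against B50CK) and one at 200 µM (B200Cd against B200CK). In both pairs 24 members were at least 2-fold higher with cadmium, against 4.58% of eligible genes, and 1 was at least 2-fold lower, against 2.05%. Read by the treatment text, the pairs are B200Cd against B50Cd at 50 µM and B50CK against B200CK at 200 µM. There 20 members were at least 2-fold higher in both, against 1.31% of eligible genes, and 0 were lower, against 0.583%. The text reading gave medians of 0.88 at 50 µM and 0.51 at 200 µM, and the code reading -0.10 and 1.21.

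Other sets of genes are set beside the members here. The 518 eligible genes higher with cadmium at all 3 supplies without sulfate were at least 2-fold higher in both sulfate pairs for 294 genes, or 56.8%, by the codes, and for 8 genes, or 1.54%, by the text. Of the 2543 other genes lower with cadmium without iron, 53 (2.08%) were higher in both pairs and 209 (8.22%) lower by the codes. By the text 191 (7.51%) were higher and 10 (0.393%) lower. The 51 genes of the opposite pattern had 2 higher (3.92%) and 5 lower (9.8%) by the codes. By the text 0 were higher and 4 (7.84%) lower. Among all eligible genes 4.58% were higher and 2.05% lower by the codes, and 1.31% and 0.583% by the text. The 850 non-members at least 2-fold higher with cadmium at both FeCl3 doses include the 518 genes above. Of these 850, 424 (49.9%) were at least 2-fold higher in both sulfate pairs by the codes, and 20 (2.35%) by the text. The differences between these sets were not tested, and the values were not used to choose a reading.

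**Figure D5:**
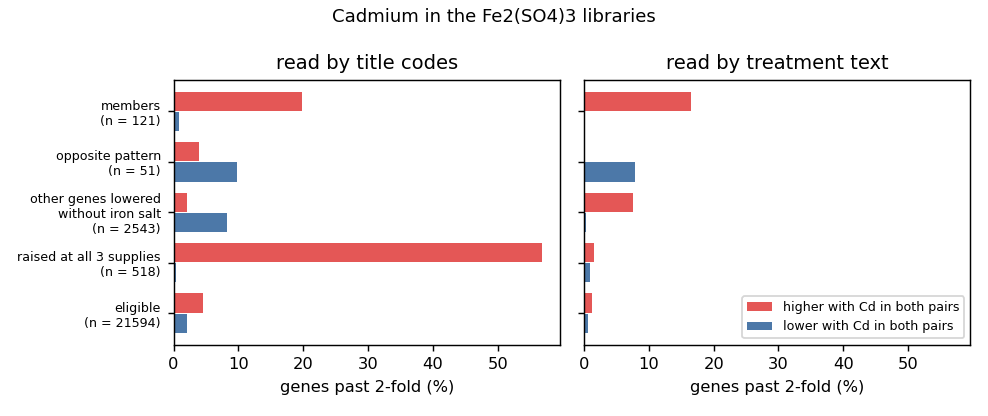
Bars give the percent of each gene set at least 2-fold higher (red) or lower (blue) with cadmium in both Fe2(SO4)3 pairs, with the title codes on the left and the treatment text on the right. Members are at 19.8% higher by the codes and 16.5% by the text, while genes higher with cadmium at all 3 other supplies go from 56.8% to 1.54%.

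The 4 sulfate libraries allow a test of cadmium with dose as a covariate, which leaves 1 residual degree of freedom. It was run on the counts of all genes with edgeR's quasi-likelihood test and Benjamini-Hochberg adjustment at 0.05, once for each reading. All 121 members were among the 51717 genes tested. The labels do not tie any libraries to separate plants of the same treatment. The p-values therefore reflect only how far these libraries scatter, which may be technical. With 1 library per combination of dose and cadmium, that scatter also holds any unlikeness of the cadmium difference between the doses.

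By the title codes 2 members rose with cadmium and 0 fell, where 0.248% of all tested genes rose and 0.0309% fell. TraesCS3A01G348000 was at 10.9 and 15.9 CPM in B50Cd and B200Cd and at 1.07 and 0.768 CPM in B50CK and B200CK, a log2 fold of 3.90 ± 0.54 (SE, edgeR adjusted p = 0.0474). TraesCS5A01G433400 was at 12.7 and 10.2 CPM in B50Cd and B200Cd and at 0.286 CPM (4 counts) and 0.709 CPM in B50CK and B200CK, a log2 fold of 4.58 ± 0.64 (edgeR adjusted p = 0.0482). The groups do not overlap for either gene. In the rule libraries both were highest without iron, at 39.2 and 7.14 CPM for TraesCS3A01G348000 and 34.5 and 16.0 CPM for TraesCS5A01G433400, and at most 4.69 CPM with FeCl3. Neither call held in every alternative: with DESeq2's size factors in edgeR no member passed, and with DESeq2 itself 18 members rose and 0 fell, against 2.02% and 0.723% of tested genes.

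By the treatment text 0 members passed in either direction with edgeR, and 0 genes of the whole table did, 0% each way (smallest adjusted p = 0.0715). DESeq2 called 11 members higher and 0 lower, against 0.271% and 0.0831% of tested genes. At an edgeR p under 0.05 without adjustment, 42 members were higher and 1 lower by the text, against 4.24% and 3.49% of tested genes, and 35 were higher and 3 lower by the codes, against 6.73% and 4.43%. The members' median log2 fold was 0.65 by the text and 0.52 by the codes, beside medians of 0.00494 and -0.02 over all tested genes.

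Ranked by the smaller of the log2 differences at 50 and 200 µM, the highest members by the text were TraesCS6A01G418300 and TraesCS1A01G391900. TraesCS6A01G418300 was at 30.3 CPM in B200Cd and 65.9 CPM in B50CK, and at 3.70 CPM in B50Cd and 12.1 CPM in B200CK. TraesCS1A01G391900 was at 35.1 and 35.3 CPM in B200Cd and B50CK and at 2.76 and 7.44 CPM in B50Cd and B200CK. For both, the libraries with cadmium by the text were above those without. Ranked by the larger of those differences, the lowest were TraesCS3B01G571300, with log2 differences of -0.30 at 50 µM and -3.08 at 200 µM, and TraesCS5A01G433400, which is also among the highest by the codes.

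A difference without B200Cd, B50CK minus B200CK, had a median of 0.51 over members and 0.11 over eligible genes. It was 0.50 over the 2543 other genes lower with cadmium without iron, so it was not particular to the members. Among fits that left out 1 library, the members' median log2 fold was lowest without B200Cd, by both readings. In fits without the dose term and without that library, the members' median log2 fold was 0.09 by the codes and 0.01 by the text, and the members at an unadjusted edgeR p under 0.05 were 22 higher and 17 lower by the codes, against 3.88% and 3.36% of tested genes. By the text they were 22 higher and 12 lower, against 7.11% and 5.41%. Without the dose term but with all 4 libraries the medians were 0.48 and 0.68. Leaving out B50CK gave 0.88 and 1.02, leaving out B50Cd gave 1.00 and 1.11, and leaving out B200CK gave 0.44 and 0.45. By the codes edgeR then called 18 members higher without B50CK, against 2.11% of tested genes. Without B200CK it called 24 higher and 3 lower, against 5.3% and 5.9%, so the share of members called lower was under the background. It called 1 member higher without B200Cd and 1 without B50Cd, against 0.221% and 0.175%. Each of these fits leaves a single library on 1 side, and its variation is taken to equal that of the rest.

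Relative to the libraries without iron, B200Cd was nearer to the control than to the cadmium library for 94 members, or 77.7%, and for 37.8% of the 2543 other genes that were lower with cadmium without iron. B50Cd was nearer to the control for 45.5% of members and 19.4% of those other genes, B50CK for 52.1% and 58.4%, and B200CK for 33.9% and 36.6%. The difference from the other genes was not tested, and the control and cadmium libraries that set the scale also chose the genes.

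The salts can be set side by side at 200 µM without cadmium, where each has a library with matching labels. In B200CK 66 members were at least 2-fold above the FeCl3 library, against 6.23% of eligible genes, with a median difference of 1.12 against -0.20. The FeCl3 library of this pair was chosen low by the rule. Equal doses of the salts also do not hold equal iron, since Fe2(SO4)3 carries more iron per formula unit.

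Members lay on all 14 chromosomes. Subgenome A held 57 of them, or 0.53% of its eligible genes, and B held 64, or 0.591%. By chromosome the share ran from 0.271% on 1A to 1.09% on 4A, which held 16 members. ID numbers run in steps of 100. Pairs of near IDs were counted among members only, so the counts say nothing about clustering. No members had neighbouring ID numbers, and 6 pairs lay within 10 steps on 1 chromosome. The closest was TraesCS4A01G317900 with TraesCS4A01G318100, named after its values were seen, with levels of 27.2 and 12.7 CPM in the libraries lacking iron, 13.3 and 36.6 CPM at 50 µM FeCl3 and 6.21 and 23.0 CPM at 200 µM. Copies of a gene on A and B can be near-identical, and how reads matching several genes were counted was not stated, so the split of counts between such copies is uncertain.

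Gene lengths, obtained by dividing CPM by the deposited FPKM, had a median of 1287 bp in members and 1259 bp in eligible genes. The longest members were TraesCS5B01G572600 (4362 bp) and TraesCS1A01G149500 (3306 bp), and the shortest TraesCS7A01G065000 (270 bp) and TraesCS1B01G194600 (345 bp). Mean levels had a median of 18.0 CPM in members and 16.5 CPM in eligible genes.

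The members' mean profile over the 10 libraries was used to look for like genes among the non-members. Single members correlated with that mean at a median r of 0.806, from 0.253 for TraesCS4B01G351000 to 0.985, a value that the rule partly fixes. The non-members most like it were TraesCS6B01G273400 (r = 0.964) and TraesCS7A01G364400 (r = 0.961). TraesCS6B01G273400 was at 602.8 and 367.7 CPM without iron, 361.6 and 535.8 CPM at 50 µM FeCl3 and 283.5 and 416.7 CPM at 200 µM. Its log2 differences were -0.71, 0.57 and 0.56, so that it had the shape of the pattern at a smaller size.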

How the data were processed

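Root RNA of 10 treatments was sequenced from 10 libraries. The authors deposited whole-number read counts per gene ID and FPKM values for the same IDs. The submitters' processing notes list TopHat2 2.0.12 and Bowtie2 2.0.6. How reads were counted, with which genome build, strand setting and filters, is not stated there. CPM are counts divided by the column total. The deposited FPKM served for gene lengths and levels per length.

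The members, lists and tests were chosen with earlier results of these data known. Members were found by the rule stated at the start of the results. Cadmium in the 4 Fe2(SO4)3 libraries was tested on the deposited counts with edgeR 4.0.16 (quasi-likelihood, TMM, filterByExpr) under R 4.3.3. Dose was a covariate and p-values were adjusted over all 51717 genes. Standard errors (SE) were derived from the log2 fold and the quasi-likelihood F. The alternatives were DESeq2 1.42.0, other scalings, filters, pseudocounts and limits, and leaving out each library. Because no table names the IDs, at most 2 were named per direction and comparison: the widest, most counted, nearest the limit, highest and lowest with sulfate, longest, shortest and most alike. The extremes of B200Cd against B200CK were added after the values were seen, and other exceptions are stated where they occur.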

Additional observations from a re-analysis of the deposited data

How the results depend on the processing

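The 121 members became 228 with TMM-scaled CPM, 2 at a 4-fold limit, and, with 1 contrast dropped (added after seeing the data), 971 without the pair lacking iron, 472 without that at 50 µM and 217 without that at 200 µM FeCl3. The other 5 settings gave 84 to 175. Members at least 2-fold higher in both sulfate pairs by the codes went from 24 of 121 (19.8%, eligible genes 4.58%) to 14 of 84 (16.7%, 4.42%) at a minimum of 10 CPM, 39 of 228 (17.1%, 5.04%) with TMM and 0 of 2 at 4-fold. By the text they went from 20 of 121 (16.5%, 1.31%) to 12 of 84 (14.3%, 1.27%) at 10 CPM. They were 26 of 228 (11.4%, 1.13%) with TMM and 0 of 2 at 4-fold. Between B200Cd and B200CK the 65 of 121 (53.7%, 9.9%) became 109 of 228 (47.8%, 10.2%) with TMM and 1 of 2 at 4-fold. The settings change the list of members itself. By the codes, and between B200Cd and B200CK, 1 member was lower. Each of these became 2 with a pseudocount of 0.1, a minimum of 1 CPM or TMM. Each became 0 with a pseudocount of 1, a minimum of 10 CPM or a 4-fold limit. By the text 0 members were lower in both pairs in all of these settings. For the test by the codes, the 2 members higher (0.248% of all tested genes) became 0 with DESeq2 size factors (0.186%), 26 without a filter on low counts (1.79%), 18 with DESeq2 (2.02%), and 26 with DESeq2 and no dose term (2.97%). They were 2 without the dose term alone (0.168%). Fits that left out 1 library are described above. The 0 lower became 2 without a filter (0.908%), 1 with DESeq2 and no dose term (1.53%), and 0 to 3 when 1 library and the dose term were left out. By the text the 0 higher became 21 without a filter (0.71%), 11 with DESeq2 (0.271%) and 5 with DESeq2 and no dose term (0.0522%), the 0 lower became 1 without a filter (0.303%), and leaving out a library with the dose term gave 0 to 0. Causes were not tested. No paired analysis was possible because the labels give no replicate numbers, apart from the dose term of the sulfate test, which pairs libraries by dose. With 1 library per treatment, depth limits counting error only.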
